A study of Homo sapiens with 30 samples.

Results

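The genes LIN28A, LIN28B, HMGA1, HMGA2, IGF2BP1, IGF2BP2, IGF2BP3, and DICER1, which make, block, or are read by let-7 microRNAs, were taken by symbol from an RNA-Seq table of 26228 genes. All 8 were listed. A gene was tested when its mean over all 30 libraries was at least 1 FPKM (fragments per kilobase of transcript, scaled to library size), which 7 members and 11575 genes in all reached. LIN28A did not reach it. LIN28B reached it through the DMSO libraries of the MYCN lines, since its other libraries lay below 1 FPKM. Its adjusted p-values are therefore given as description, and counts over the tested members describe them and carry no weight as evidence.

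Poly(A) RNA was measured from SH-EP, an established neuroblastoma (NB) cell line of mesenchymal type without MYCN amplification, and from 4 stable SH-EP derivatives made with retroviral MYCN under an exogenous promoter. The derivatives carry WT MYCN, T58A MYCN, S62A MYCN, or the double mutant T58A S62A, in which phosphorylation sites that govern MYCN turnover are replaced. All 5 lines grew in DMEM with 10% FBS and received DMSO, the vehicle, or 1 μM CYC065 (fadraciclib), an inhibitor of the kinases CDK9 and CDK2, for 6 hours. There were 3 libraries per line and treatment. Each genotype is represented by a single line, no empty-vector line is among the samples, and the labels do not say whether libraries came from separate cultures, so p-values measure the spread between libraries.

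MYCN matched the labels. It was listed at 0 in all SH-EP libraries and at 5.08 to 15.7 FPKM in the DMSO libraries of the MYCN lines, with the lowest mean in S62A (5.72 ± 0.778 FPKM, SD, n = 3). All 7 mesenchymal markers were at 1 FPKM or more in every DMSO library of every line. Of 13 sympathoadrenal markers 8 were under 1 FPKM in all SH-EP DMSO libraries, PHOX2A, TH, and DBH among them, and 4 were at 1 FPKM or more in all. In the MYCN lines 7 were under 1 FPKM and 4 at 1 FPKM or more in all DMSO libraries. The 13 summed to 215 to 219 FPKM in SH-EP and 142 to 223 in the MYCN lines in DMSO. The part of that sum in the differences between lines was not tested. The summed level of the mesenchymal markers was 3207 to 3329 FPKM in SH-EP and 1582 to 2262 FPKM in the MYCN lines in DMSO, and its part in the differences between lines was not tested. The leukocyte markers PTPRC and CD3E, the epithelial EPCAM and CDH1, and the endothelial PECAM1, CDH5, VWF, and KDR were under 1 FPKM throughout the DMSO libraries. The other 3 of 5 epithelial markers, the keratins KRT8, KRT18, and KRT19, were at 1 FPKM or more in all of them, and the 5 summed to 637 to 697 FPKM in SH-EP and 396 to 856 in the MYCN lines. Of 5 leukocyte markers 1, CD68, was at 1 FPKM or more in all of them, and the 5 summed to 15.9 to 19.6 FPKM in SH-EP and 2.57 to 7.26 in the MYCN lines. The part of either sum in the differences between lines was not tested. Relative depth, read from the smallest FPKM values, was 0.470 to 1 in DMSO and 0.293 to 0.554 in CYC065 libraries, where 1 is the deepest, and its part in the CYC065 results was not tested. The sequencing index of each of the 6 SH-EP libraries recurs on a library of a MYCN line. Which libraries were pooled together is not given in the sources used here. A part of pooling in the comparisons with SH-EP therefore cannot be told apart from line.

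Let-7 microRNAs are a family of small RNAs that silence growth genes as cells differentiate. LIN28A and LIN28B bind let-7 precursors and block their processing, and DICER1 cuts those precursors into mature let-7. HMGA1 and HMGA2 are architectural chromatin proteins, and IGF2BP1, IGF2BP2, and IGF2BP3 bind mRNAs and protect them from decay. Several of these genes are highly expressed in embryonic tissue, fall silent in most adult tissues, and return in tumors. In NB, LIN28B is known as an oncogene that lowers let-7 and raises MYCN protein. The libraries measured here hold poly(A) RNA, so let-7 itself was not measured. Of 12 let-7 hairpin rows, 11 were listed at 0 in all 30 libraries. The row of MIRLET7D was above 0 in 8 libraries, at 119 to 342 FPKM.

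The let-7 family shares its seed, bases 2 to 8, which pairs with target mRNAs. All 9 mature sequences in RefSeq carry the same seed, GAGGUAG. Those of let-7a, let-7g, and miR-98 are shown so that the pairing with the sites further on can be read, with the seed in capitals.
let-7a-5p: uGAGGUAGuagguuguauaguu
let-7g-5p: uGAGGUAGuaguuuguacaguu
miR-98-5p: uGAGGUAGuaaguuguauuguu
LIN28 proteins recognise the letters GGAG in the loop of the precursor. Of 12 hairpins, 9 held GGAG between the mature arms, and those of MIRLET7A3, MIRLET7B, and MIR98 did not. A hairpin with the motif, in capitals, is followed by the hairpin of let-7b, which lacks it.
let-7g hairpin: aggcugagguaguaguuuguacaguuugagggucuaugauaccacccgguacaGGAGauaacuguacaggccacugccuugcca
let-7b hairpin: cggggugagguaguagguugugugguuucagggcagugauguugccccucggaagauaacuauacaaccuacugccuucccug

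The members' 3′ UTRs were searched for the 7 letters that pair with the seed, CTACCTC, on the mRNA strand of the coding transcript tagged MANE Select. Of 8 members, 7 held at least 1 match, as did 9.86% of 18645 3′ UTRs of all genes. Among 3′ UTRs 0.8 to 1.25 times as long as that of the member, 8.79% (HMGA1) to 32.4% (IGF2BP1) held 1. The members were chosen as let-7 pathway genes, so their counts of matches describe them and carry no weight as evidence. DICER1 held none in a 3′ UTR of 4270 bases. HMGA2, LIN28B, and IGF2BP1 held 4 each, and only 12 of the 18645 3′ UTRs held as many. Of 3′ UTRs 0.8 to 1.25 times as long, 0.0847% held at least 4 in the case of HMGA2, 0.187% in that of LIN28B, and 0.517% in that of IGF2BP1. HMGA1, IGF2BP2, IGF2BP3, and LIN28A held 1 each. The sites of the 3 genes with 4 matches are shown with the match in capitals, read from GRCh37.
HMGA2 site 1, chr12:66357079-66357100, plus strand: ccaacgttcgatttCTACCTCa
HMGA2 site 2, chr12:66358314-66358335, plus strand: cccactactcaataCTACCTCt
HMGA2 site 3, chr12:66358726-66358747, plus strand: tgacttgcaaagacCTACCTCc
HMGA2 site 4, chr12:66359579-66359600, plus strand: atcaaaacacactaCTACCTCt
LIN28B site 1, chr6:105526688-105526709, plus strand: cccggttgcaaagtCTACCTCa
LIN28B site 2, chr6:105529115-105529136, plus strand: actgatgatagtaaCTACCTCt
LIN28B site 3, chr6:105529297-105529318, plus strand: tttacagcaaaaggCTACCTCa
LIN28B site 4, chr6:105530736-105530757, plus strand: aatgatggtgttgaCTACCTCt
IGF2BP1 site 1, chr17:47128424-47128445, plus strand: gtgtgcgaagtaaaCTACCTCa
IGF2BP1 site 2, chr17:47131061-47131082, plus strand: agcagtgctagtaaCTACCTCa
IGF2BP1 site 3, chr17:47131715-47131736, plus strand: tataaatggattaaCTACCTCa
IGF2BP1 site 4, chr17:47132360-47132381, plus strand: cacttttgttttatCTACCTCt
The first HMGA2 and LIN28B sites start at bases 21 and 44 of the 3′ UTR. Among the other site-rich genes were HEMK1, HIC2, IGDCC3, LIMD2, NR6A1, SMC1A, TRIM71, and ZBTB37. TRIM71, a stem cell regulator with 6 matches, stayed at or below 0.104 FPKM in every library, and IGDCC3 at or below 0.0523 FPKM. A match is a description of sequence and not a measured site.

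Of the pair of let-7 blockers, these cells made transcripts of LIN28B. LIN28A (chromosome 1, 26737308 to 26756219 of GRCh37, plus strand) was listed at 0 in 28 of 30 libraries and at 0.0379 and 0.120 FPKM in 1 T58A and 1 T58A S62A library in DMSO, and a listed 0 can be a failed estimate. LIN28B (chromosome 6, 105384491 to 105531207 of GRCh37, plus strand) was low in SH-EP and higher in every MYCN line as deposited. In DMSO it was at 0.707, 0.756, and 0.957 FPKM in SH-EP. It was at 2.04, 2.09, and 2.43 FPKM in WT and at 2.37, 3.08, and 3.24 FPKM in T58A. In S62A the values were 2.18, 2.28, and 2.65 FPKM, and in T58A S62A 2.33, 2.95, and 3.25 FPKM. The 12 libraries of the MYCN lines all lay above the 3 of SH-EP, and the 4 MYCN lines overlapped with each other. In bulk RNA, fewer expressing cells and less RNA per cell cannot be told apart.

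As deposited, LIN28B rose by 1.55 ± 0.215 on the log2 scale (mean over the 4 MYCN lines ± SE, 2.93-fold, adjusted p = 1.04e-06), from 1.34 in WT to 1.72 in T58A, all past the threshold. LIN28B passed the filter only through the DMSO libraries of the MYCN lines, so these adjusted p-values are given as description. An exact permutation test of the 12 libraries against 3, two-sided, gave p = 0.0022, the smallest that its splits allow. The test was run for each of the 8 members, without adjustment. Deposited FPKM compare a gene with the rest of its library. On spike-in scaled values, which are relative to synthetic RNAs added by cell number, the difference was 0.41 (adjusted p = 0.146, exact permutation p = 0.305), and in S62A it turned to -0.37. On that scale 8 of the 12 libraries of the MYCN lines lay above all SH-EP libraries and 2 below them. Over its 7 alternatives the adjusted p ranged from 5.90e-09 to 0.146. Scaled to spike-ins, the median of all tested genes was itself lower in the MYCN lines, by 1.17 on the log2 scale (0.06 as deposited), so relative to that median LIN28B stood 1.58 higher, against 1.49 as deposited. As deposited, no pair of MYCN lines differed in LIN28B past the threshold, and the T58A minus WT difference, the widest, was 0.38 with a 95% interval of -0.18 to 0.94. On spike-in scaled values LIN28B was lower in S62A than in T58A (-1.24, adjusted p = 0.00155) and higher in T58A S62A than in S62A (1.33, adjusted p = 0.00072).

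After CYC065, LIN28B dropped in all 5 lines. The 3 libraries were at 0.0924, 0.239, and 0.291 FPKM in SH-EP and at 0.317, 0.366, and 0.435 FPKM in WT. They were at 0.340, 0.452, and 0.589 FPKM in T58A, at 0.318, 0.373, and 0.527 FPKM in S62A, and at 0.305, 0.458, and 0.700 FPKM in T58A S62A. All 15 treated libraries lay under the lowest DMSO library, SH-EP included, and the MYCN lines stayed above SH-EP as deposited. Scaled to spike-ins, only 2 of the 12 treated libraries of the MYCN lines lay above all treated SH-EP libraries, and 1 lay below them. On spike-in scaled values, LIN28B fell by 2.87 ± 0.337 in SH-EP and by 3.42 ± 0.168 over the 4 MYCN lines (log2 ± SE, adjusted p = 1.94e-08 and 8.47e-17), the second a 10.7-fold change. It was the largest fall among the members, 2.19 below the median of all tested genes. At this level the pseudocount sets the size: with a pseudocount of 1 the fall was 1.84 and with 0.01 it was 3.90. The response did not differ from that of SH-EP past the threshold (-0.55, 95% interval -1.33 to 0.22).

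**Figure D1:**
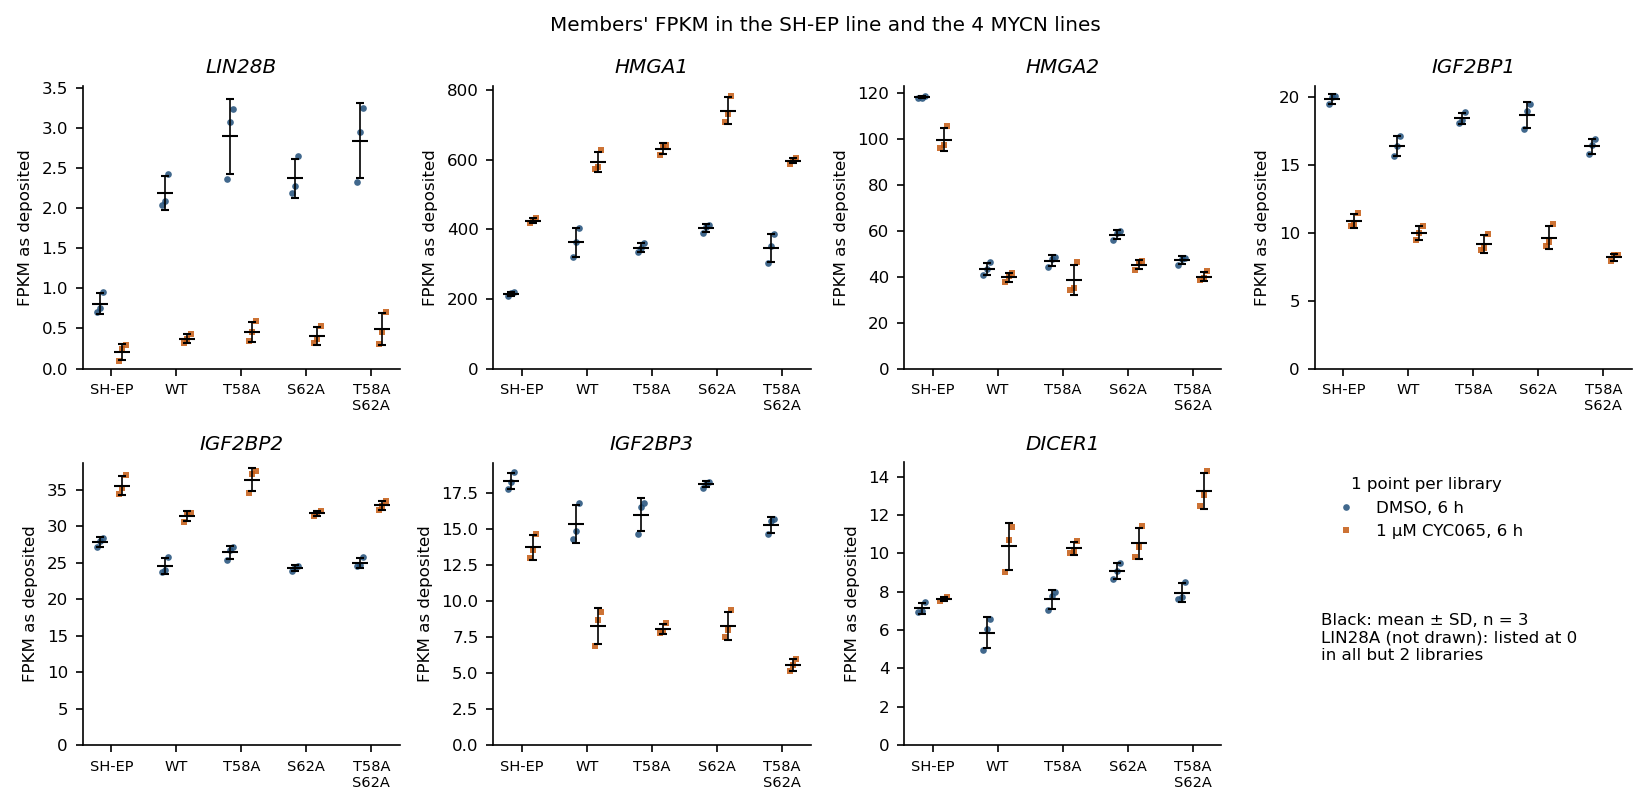
FPKM as deposited of the 7 tested members (y axis, 1 panel per gene) in the 5 lines (x axis) in DMSO (circles) and CYC065 (squares), with 1 point per library and the mean ± SD of 3. LIN28B and HMGA1 in the MYCN lines sit above SH-EP and HMGA2 below it in all 12 DMSO libraries, and LIN28B falls to at most 0.700 FPKM under CYC065.

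The paralogs HMGA1 and HMGA2 moved in opposite directions in the MYCN lines as deposited, and both fell on spike-in scaled values. HMGA2 (chromosome 12, 66218240 to 66360071, plus strand) was at 118, 118, and 119 FPKM in SH-EP in DMSO. It was at 40.6, 43.2, and 46.3 FPKM in WT, at 44.1, 47.9, and 48.7 in T58A, at 56.1, 58.9, and 59.8 in S62A, and at 45.1, 47.9, and 48.3 in T58A S62A. The 12 libraries of the MYCN lines all lay below the 3 of SH-EP, at 48.9 ± 6.15 FPKM (SD, n = 12) against 118. HMGA2 fell by 1.28 ± 0.0620 in log2 (2.43-fold lower, adjusted p = 1.05e-14, exact permutation p = 0.0022), and by 2.53 when scaled to spike-ins. Both values are past the threshold, and relative to the median of all genes they come to -1.35 and -1.36.

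HMGA1 (chromosome 6, 34204650 to 34214008, plus strand) was the most abundant member. In DMSO its libraries were at 208, 217, and 219 FPKM in SH-EP, at 322, 363, and 404 in WT, and at 335, 347, and 362 in T58A. They were at 390, 407, and 413 FPKM in S62A and at 303, 351, and 386 in T58A S62A. All 12 libraries of the MYCN lines lay above SH-EP as deposited. HMGA1 rose by 0.76 ± 0.0553 in log2 as deposited (1.69-fold, adjusted p = 2.27e-11, exact permutation p = 0.0022), but the direction turned with spike-in scaling, to -0.49 (adjusted p = 0.00585, exact permutation p = 0.0923). Over its 8 alternatives the adjusted p ranged from 6.48e-12 to 0.00585. Relative to the median of all genes HMGA1 stood 0.70 higher as deposited and 0.68 higher when scaled.

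A ratio within a library needs no scaling. HMGA1 FPKM over HMGA2 FPKM was 1.82 ± 0.0552 in SH-EP in DMSO (SD, n = 3). The WT line stood at 8.44 ± 1.49, the T58A line at 7.44 ± 0.662, the S62A line at 6.93 ± 0.375, and the T58A S62A line at 7.37 ± 0.910. No library of a MYCN line overlapped with SH-EP. After CYC065 the ratio was 4.27 ± 0.282 in SH-EP and from 15 ± 0.898 in T58A S62A to 16.7 ± 2.42 in T58A, again without overlap. These ratios were chosen after the values had been seen and were not tested.

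After CYC065 the paralogs were again apart. As deposited, HMGA1 was at 418 to 432 FPKM in the treated SH-EP libraries and at 575 to 784 in those of the MYCN lines, above DMSO throughout. Its change turned with the scaling: over the 4 MYCN lines it fell by 0.55 ± 0.101 in log2 on spike-in scaled values (adjusted p = 1.11e-05) and rose by 0.81 as deposited. HMGA1 did not pass the threshold on spike-in scaled values in SH-EP (-0.27, 95% interval -0.68 to 0.15), T58A (-0.33), or T58A S62A (-0.29). HMGA2 fell in every line on spike-in scaled values, by 1.5 ± 0.175 in SH-EP and by 1.61 ± 0.0874 over the MYCN lines (adjusted p = 1.78e-08 and 6.61e-16), where the median gene fell by 1.23. As deposited it fell by 0.25 over the MYCN lines, and with libraries centred on their median it was at -0.098 (adjusted p = 0.0213), with WT alone turned, to 0.033. Line by line, WT did not pass as deposited (adjusted p = 0.156), and with libraries centred S62A alone did, while SH-EP, T58A, T58A S62A, and WT did not (adjusted p = 0.186, 0.171, 0.324, and 0.712).

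**Figure D2:**
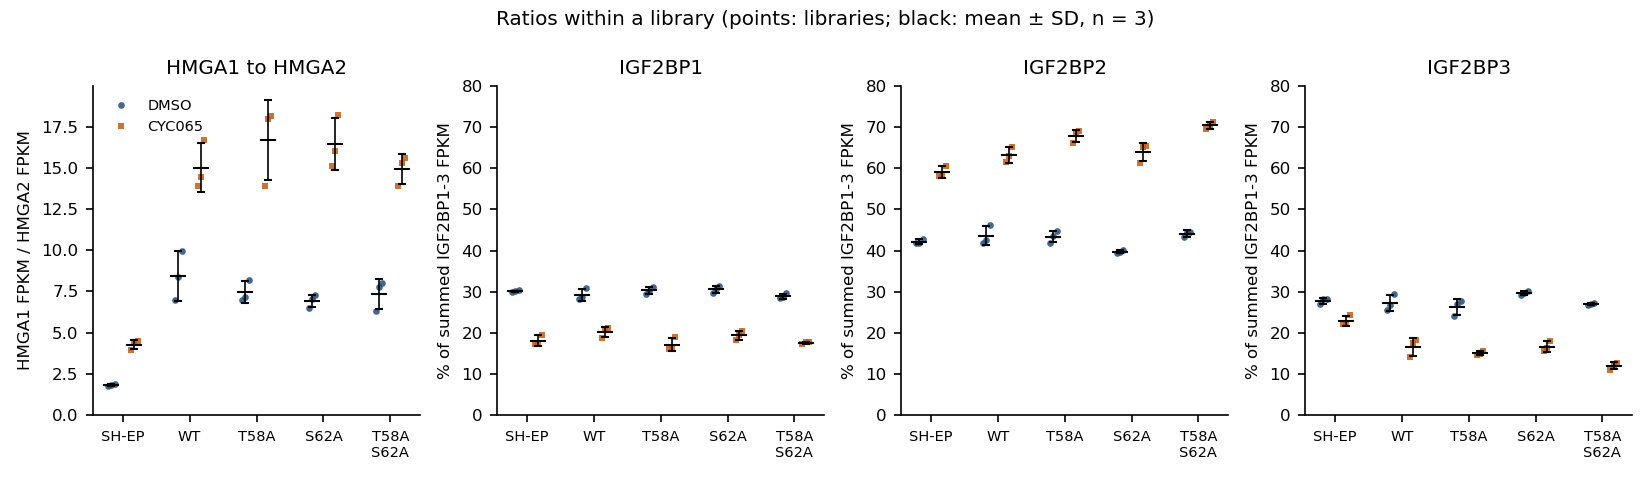
HMGA1 FPKM over HMGA2 FPKM, and the percentage that each IGF2BP gene takes of the summed FPKM of the 3 (y axes), by line (x axis) in DMSO (circles) and CYC065 (squares), with the mean ± SD of 3 libraries. The HMGA ratio is 1.82 in SH-EP in DMSO and 6.93 to 8.44 in the MYCN lines, and the IGF2BP2 share is higher under CYC065 in all lines.

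IGF2BP1 (chromosome 17, 47074747 to 47133507, plus strand), IGF2BP2 (chromosome 3, 185360918 to 185542830, minus strand), and IGF2BP3 (chromosome 7, 23349828 to 23510110, minus strand) encode stabilisers of growth transcripts, IGF2 and MYC among them. In DMSO all 3 were well expressed in SH-EP, and MYCN lines differed from it by small amounts. IGF2BP1 was at 19.5 to 20.1 FPKM in SH-EP and 15.7 to 19.5 in the MYCN lines. IGF2BP2 was at 27.1 to 28.4 FPKM in SH-EP and 23.7 to 27.1 in the MYCN lines. IGF2BP3 was at 17.8 to 19 FPKM in SH-EP and 14.3 to 18.3 in the MYCN lines. As deposited, IGF2BP1 fell by 0.19 ± 0.0506, IGF2BP2 by 0.15 ± 0.0338, and IGF2BP3 by 0.18 ± 0.0739 (log2 ± SE, adjusted p = 0.00265, 0.000417, and 0.0352), all under 1.5-fold. The exact permutation p-values were 0.0110, 0.00440, and 0.0352. The IGF2BP3 call was lost without WT library 2, T58A library 2, or any of the 3 SH-EP libraries (adjusted p up to 0.136). Scaled to spike-ins they fell by 1.43, 1.40, and 1.43, beside a median gene at -1.17. Their proportions were similar, since IGF2BP2 made up 42.1% ± 0.580 of their summed FPKM in SH-EP and 39.7% to 44.1% in the MYCN lines.

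After CYC065 the balance of the 3 was different. IGF2BP3 was at 13.0, 13.6, and 14.7 FPKM in treated SH-EP libraries, against 17.8, 18.3, and 19 in DMSO. In the treated MYCN lines it was lower, at 6.86, 8.70, and 9.23 FPKM in WT and at 7.80, 7.94, and 8.48 in T58A. It was at 7.52, 7.99, and 9.40 FPKM in S62A and at 5.18, 5.54, and 6.01 in T58A S62A. The 12 treated libraries of the MYCN lines all lay below the treated SH-EP libraries. On spike-in scaled values IGF2BP3 fell by 1.66 ± 0.185 in SH-EP and by 2.45 ± 0.0924 over the MYCN lines (log2 ± SE, adjusted p = 7.16e-09 and 3.26e-19), 5.48-fold in the latter.

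On spike-in scaled values, the response of IGF2BP3, 1 of the 7 tested members, differed between the MYCN lines and SH-EP, as did that of 6.1% of all tested genes. The difference was -0.79 ± 0.207 in log2 over the 4 lines (95% interval -1.21 to -0.36, adjusted p = 0.0192). By line it was -0.92 in S62A and -0.89 in WT (adjusted p = 0.0385 and 0.0345). It was -0.85 in T58A S62A (adjusted p = 0.0562) and -0.50 in T58A (adjusted p = 0.477). As deposited, the difference over the 4 lines was -0.69 and centred on library medians -0.66, and on both scales all 4 lines passed the threshold. HMGA1 in WT passed as deposited as well (-0.27, adjusted p = 0.0442). DICER1 passed in 2 of its 9 alternatives in WT, in 2 in T58A S62A, and in 1 in T58A. Its lowest adjusted p-values there were 0.000119, 0.000481, and 0.0322. For IGF2BP3, the adjusted p for the mean ranged over 9 alternatives from 1.87e-05 to 0.0828, and 8 stayed past the threshold. Leaving out each library in turn, its adjusted p ranged from 0.00455 to 0.0894, and the call was lost in 4 of 30 fits, each without an SH-EP library. The WT call was lost in 8 of 12 such fits and the S62A call in 9 of 12.

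For IGF2BP1 the difference of responses was -0.14 (95% interval -0.58 to 0.29) and for IGF2BP2 -0.06 (95% interval -0.49 to 0.36). IGF2BP1 was at 10.5 to 11.5 FPKM in treated SH-EP and 7.91 to 10.6 in treated MYCN lines, and fell on spike-in scaled values by 2.11 ± 0.191 in SH-EP and by 2.26 ± 0.0954 over the MYCN lines (adjusted p = 1.54e-10 and 3.26e-18). IGF2BP2 was at 34.4 to 37.1 FPKM in treated SH-EP and 30.6 to 37.5 in treated MYCN lines, and its direction turned with the scaling: over the MYCN lines it fell by 0.96 ± 0.0930 on spike-in scaled values (adjusted p = 1.73e-10) and rose by 0.40 as deposited. Within libraries, the IGF2BP2 share was 59.1% ± 1.36 in treated SH-EP and from 63.2% ± 1.92 in WT to 70.5% ± 0.845 in T58A S62A. The IGF2BP3 share was 22.8% ± 1.23 in treated SH-EP, against 27.8% ± 0.749 in DMSO. In T58A S62A it was 12% ± 0.886 after treatment and 27.0% ± 0.279 before (SD, n = 3).

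DICER1, the ribonuclease that cuts let-7 precursors (chromosome 14, 95552565 to 95624347, minus strand), was placed differently in the single MYCN lines. In DMSO its libraries were at 6.94, 6.99, and 7.47 FPKM in SH-EP, at 4.98, 6.03, and 6.59 in WT, and at 7.02, 7.79, and 7.97 in T58A. They were at 8.66, 9.10, and 9.48 FPKM in S62A and at 7.61, 7.73, and 8.5 in T58A S62A. WT lay below and S62A above all SH-EP libraries. As deposited, DICER1 fell by 0.29 ± 0.0912 in WT and rose by 0.34 ± 0.0912 in S62A (log2 ± SE, adjusted p = 0.0103 and 0.00267). The WT call was lost without WT DMSO library 2 (adjusted p = 0.109). Over the 4 lines it was at 0.07 (95% interval -0.07 to 0.22). Scaled to spike-ins it turned to -1.59 in S62A and -1.16 over the 4 lines, where the median gene stood at -1.17.

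After CYC065 DICER1 was at 7.53 to 7.69 FPKM in SH-EP, at 9.02 to 11.4 in WT, at 10.0 to 10.6 in T58A, at 9.80 to 11.4 in S62A, and at 12.5 to 14.3 in T58A S62A. All 12 treated libraries of the MYCN lines lay above treated SH-EP as deposited. Scaled to spike-ins, DICER1 lay above all treated SH-EP libraries in 2 of the 12 and below them in 10. Its direction turned with the scaling: over the MYCN lines it fell by 0.80 ± 0.0981 on spike-in scaled values (adjusted p = 1.60e-08) and rose by 0.55 as deposited, while the median gene was at -1.23 and 0.08. The response differed from that of SH-EP by 0.35 on spike-in scaled values (95% interval -0.10 to 0.80, adjusted p = 0.353) and by 0.45 as deposited (adjusted p = 0.00146). Over 9 alternatives the adjusted p ranged from 0.000689 to 0.642.

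Among the MYCN lines in DMSO as deposited, DICER1 was higher than in WT by 0.63 in S62A, by 0.44 in T58A S62A, and by 0.37 in T58A (log2, SE 0.0912 each, adjusted p = 1.63e-05, 0.000894, and 0.00397). HMGA2 was higher in S62A than in WT by 0.43, than in T58A by 0.31, and than in T58A S62A by 0.31 (SE 0.0785, adjusted p = 0.000292, 0.00340, and 0.00418). HMGA1 was 0.21 higher in S62A than in T58A and 0.22 higher than in T58A S62A. IGF2BP1 was 0.19 higher in S62A than in WT and than in T58A S62A, and DICER1 was 0.26 higher in S62A than in T58A. The HMGA1, IGF2BP1, and last DICER1 differences lost their call in 2 to 4 of the 6 fits that leave out 1 library. IGF2BP2 was 0.12 lower in S62A than in T58A and lost its call in 4 of 6. The differences in which S62A was higher turned negative on spike-in scaled values, where the median S62A gene was at -1.86 against SH-EP and that of the other MYCN lines between -1.16 and -0.75. S62A was also the line with least MYCN RNA, and the part of either in these differences was not tested.

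As a count, 6 of 7 tested members passed in the MYCN lines against SH-EP over the mean, 2 higher and 4 lower, where 60.9% of all tested genes passed. By line, 6 passed in T58A S62A (55.3% of all genes), 5 in S62A (54.3%), 3 in T58A (54.2%), and 7 in WT (54.2%). After CYC065, all 7 were lower over the mean on spike-in scaled values, as were 94.1% of all genes, and 95.8% passed in either direction. By line 6 passed in SH-EP (76.6% of all genes), 5 in T58A S62A (78.1%), 7 in S62A (91.2%), 6 in T58A (85.5%), and 7 in WT (94.5%). In the difference of responses 1 member passed over the mean (6.1% of all genes), 0 in T58A S62A (5.41%), 1 in S62A (4.95%), 0 in T58A (2.59%), and 1 in WT (18.1%). Between MYCN lines 1 member passed in T58A against WT (23.6% of all genes), 3 in S62A against WT (24.1%), and 1 in T58A S62A against WT (23.7%). In S62A against T58A 4 passed (32.8%), in T58A S62A against T58A 0 (16.7%), and in T58A S62A against S62A 3 (30.7%). Over the mean, the members' median change in the MYCN lines was -0.15 against 0.06 for all genes, and after CYC065 -1.61 against -1.23. These counts and medians were not tested against all genes.

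**Figure D3:**
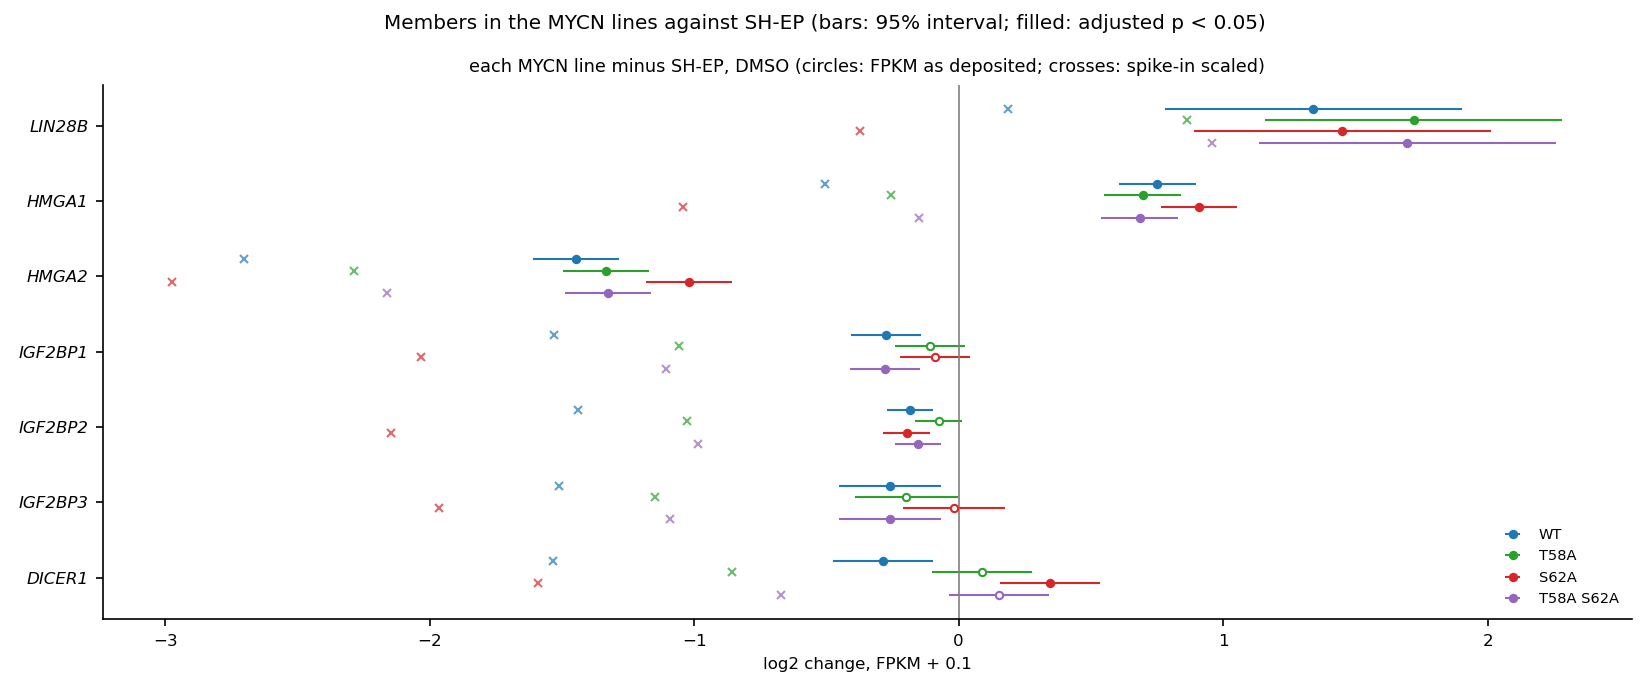
Log2 change with its 95% interval (x axis) of each tested member (y axis) in every MYCN line over SH-EP under DMSO, as deposited (circles, filled where the adjusted p was under 0.05), and the same difference on spike-in scaled values (crosses). HMGA2 is below 0 on both scales, and HMGA1 is above 0 as deposited and below 0 on spike-in scaled values in all 4 lines.

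**Figure D4:**
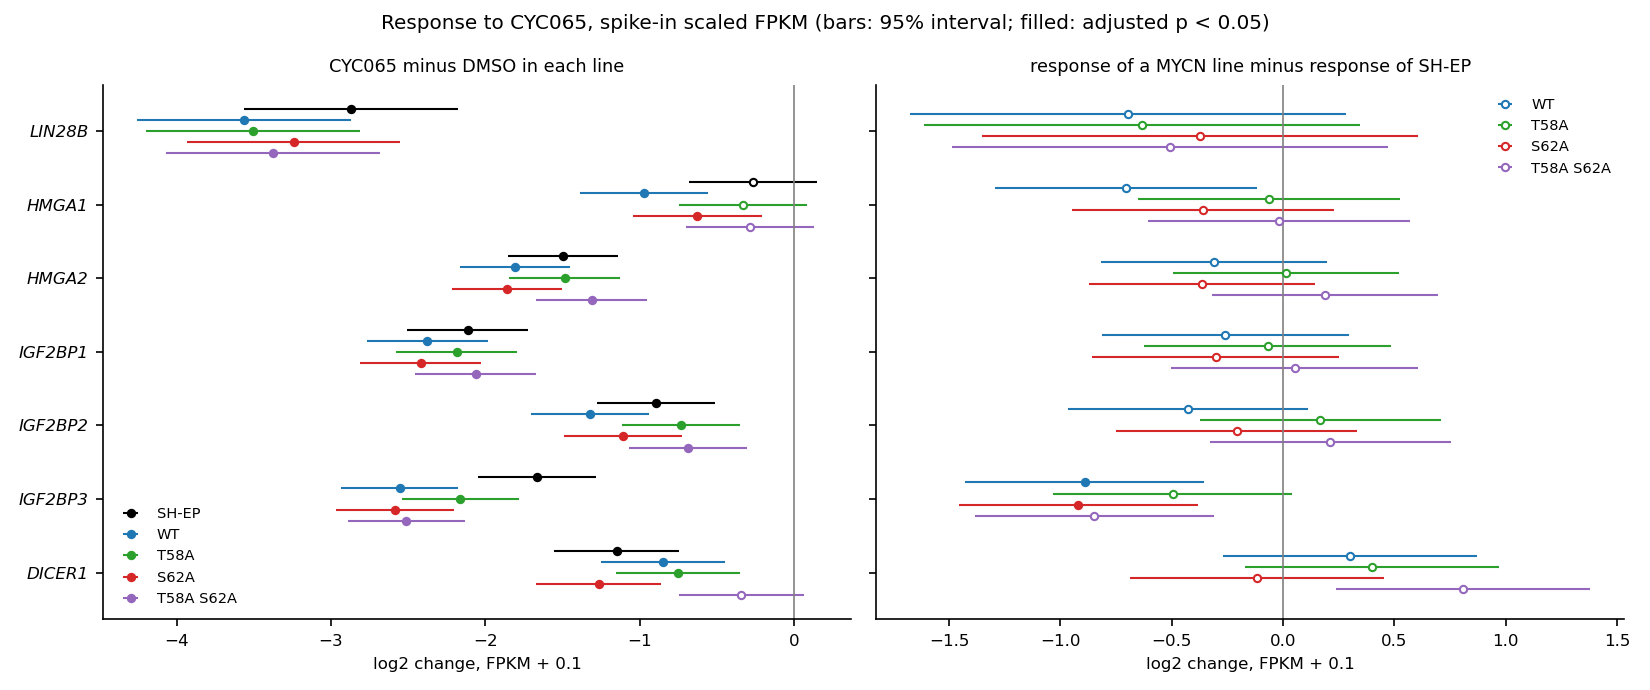
Log2 change after CYC065 in each line (left) and difference of that response from SH-EP (right), on spike-in scaled values with 95% intervals (x axes), for each tested member (y axis). Filled circles mark adjusted p-values under 0.05, which on the right are IGF2BP3 in WT and S62A.

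The promoters of 5 members were found in RefSeq, 12 in all (GRCh38.p14, 250 bases before and 50 after each start). LIN28A, HMGA2, and IGF2BP1 had no entry. They were searched for CACGTG, the E-box bound by MYC family dimers, which reads alike on both strands. It was in 2 of 12, the second start of LIN28B, 47 bases before it, and the start of IGF2BP3, 174 and 146 bases before it. Among all 35116 promoters 7.26% held it and 0.664% held it at least 2 times. The letters CANNTG, which contain it, were in 9 of 12 and in 68.7% of all. Both promoters are shown with CACGTG in capitals, as the only 2 of 12 that held it. The part of the motif in the levels or responses of these genes was not tested.
LIN28B, chr6:104956857-104957156, plus strand: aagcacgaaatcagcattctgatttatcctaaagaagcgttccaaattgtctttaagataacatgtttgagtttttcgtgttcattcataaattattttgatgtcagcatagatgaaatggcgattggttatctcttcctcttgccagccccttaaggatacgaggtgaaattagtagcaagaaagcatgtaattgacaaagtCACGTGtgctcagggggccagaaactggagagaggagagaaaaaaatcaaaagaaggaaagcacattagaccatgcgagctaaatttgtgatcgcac
IGF2BP3, chr7:23470442-23470741, minus strand: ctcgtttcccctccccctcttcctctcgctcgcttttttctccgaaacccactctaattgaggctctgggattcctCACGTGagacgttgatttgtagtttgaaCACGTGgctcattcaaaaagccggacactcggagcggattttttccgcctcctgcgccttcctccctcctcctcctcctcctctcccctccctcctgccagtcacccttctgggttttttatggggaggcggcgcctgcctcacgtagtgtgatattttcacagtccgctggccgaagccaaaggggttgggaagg
Binding was not measured in these libraries.

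The other genes of the pathway were grouped in lists. Over all 11575 tested genes, 34.6% rose and 26.3% fell in the MYCN lines as deposited, and 1.1% rose and 91.2% fell on spike-in scaled values. Of 19 genes of the Drosha and Dicer machinery, all tested, 6 rose and 1 fell in the MYCN lines as deposited. The slicer AGO2 rose by 1.05 ± 0.0847, the export factors RAN by 0.60 and XPO5 by 0.46, and the splicing and decay factor KHSRP by 0.45. With spike-in scaling these turned to -0.18, -0.65, -0.78, and -0.79, each above the median of -1.17, and the list counted 0 higher and 18 lower. Of 10 tested genes that tail or degrade let-7, 4 rose and 0 fell. They were the ribonucleases PNPT1 (0.93) and XRN2 (0.24), the exosome subunit EXOSC10 (0.18), and TRIM25 (0.80), a LIN28 cofactor in let-7 tailing. All 4 turned negative with spike-in scaling, from -0.31 to -1.07. The terminal uridylyltransferases TUT4 and TUT7, listed as ZCCHC11 and ZCCHC6, did not pass as deposited, and on spike-in scaled values all 10 genes of the list were lower.

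Of 20 let-7 hosts, hairpins, and neighbouring miRNA transcripts, 7 were tested, MIRLET7D among them, and 2 rose and 1 fell in the MYCN lines as deposited, whereas 0 rose and 6 fell on spike-in scaled values. MIR100HG, which hosts let-7a-2, fell by 0.49 ± 0.0838 (adjusted p = 2.23e-05), from 19.1 ± 1.40 FPKM in SH-EP to 11 ± 1.10 in S62A. MIRLET7BHG, the host of let-7a-3 and let-7b, was at 1.84 ± 0.219 FPKM in SH-EP and 1.84 to 2.57 in the MYCN lines and did not pass. WDR82, whose locus holds let-7g, rose by 0.21 as deposited and stood at -1.04 on spike-in scaled values.

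Known let-7 targets went both ways. Of 48 in the list, 36 hold a perfect seed match in the 3′ UTR and 43 were tested, of which 19 rose and 13 fell in the MYCN lines as deposited, with a median of 0.09 beside 0.06 for all genes, and on spike-in scaled values 1 was higher and 41 lower. The cell cycle factor E2F5 rose by 1.82 ± 0.180 (0.60 on spike-in scaled values), from 3.83 ± 0.446 FPKM in SH-EP to 18.9 ± 2.48 in T58A. The collagen COL3A1 fell by 1.32 and the matrix peroxidase PXDN by 1.44. MYC fell by 2.51 ± 0.136, from 4.94 ± 0.491 FPKM in SH-EP to 0.446 ± 0.0283 in T58A. Over all genes with a searched 3′ UTR, the 1070 with a seed match had a median change of 0.06 and the 8921 without one 0.07. Of 8 site-rich genes tested, HEMK1 fell by 0.47 and HIC2 rose by 0.29 as deposited, beside the 3 members.

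Of 31 oncofetal and stem cell RNA-binding genes, 19 were tested. MSI1, ELAVL2, ELAVL3, ELAVL4, DAZL, DDX4, and PIWIL2 were among those under the filter, so the counts do not cover them. Of the 19, 18 rose and 0 fell in the MYCN lines as deposited, where 34.6% of all tested genes rose. Their median was 0.43 beside 0.06 for all genes, and with libraries centred on their median the counts were again 18 and 0. On spike-in scaled values 0 were higher and 17 lower, where 91.2% of all tested genes were lower, with a median of -0.82 beside -1.17. RBM38 rose by 1.44 ± 0.132, the cold shock protein YBX3 by 1.10 ± 0.0521, the stem cell regulator MSI2 by 0.63, and the 5′ UTR binder LARP1 by 0.61. With spike-in scaling RBM38 was at 0.21 and the other 3 turned to -0.14, -0.61, and -0.64.

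Among the RNAs that IGF2BP and LIN28 proteins bind, 10 of 18 tested rose and 7 fell in the MYCN lines as deposited, and 3 rose and 15 fell on spike-in scaled values. The 3 were MYCN, which was itself introduced into these lines, IGF2, and H19, a fetal noncoding RNA reported to bind let-7 and IGF2BP proteins. It was at 4.34, 6.01, and 6.61 FPKM in SH-EP and at 956 to 1251 in the WT and T58A lines in DMSO. It was at 281, 283, and 302 FPKM in S62A and at 542, 650, and 653 in T58A S62A. H19 rose by 6.87 ± 0.0860 in log2 as deposited and by 5.64 on spike-in scaled values (adjusted p = 2.60e-26 as deposited). Its imprinted neighbour IGF2, the transcript after which the IGF2BP family is named, rose by 3.12 ± 0.0989 and by 1.96, from 1.02 ± 0.207 FPKM in SH-EP to 18.4 ± 0.595 in T58A. In both genes S62A was the lowest of the MYCN lines and did not overlap with the other 3.

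Of 18 tested HMGA-linked chromatin genes, 9 rose and 4 fell as deposited, and 0 rose and 18 fell on spike-in scaled values. SNAI2, a mesenchymal regulator downstream of HMGA2, fell by 1.26 ± 0.0957 (2.51 on spike-in scaled values), HMGB2 fell by 0.54, and HMGB3 and E2F1 rose by 0.58 and 0.55 as deposited, the last pair at -0.66 and -0.69 on spike-in scaled values.

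After CYC065, 94.1% of all tested genes fell on spike-in scaled values, and every tested gene fell in the lists of the Drosha and Dicer machinery (19), tailing (10), oncofetal RNA-binding genes (19), and HMGA-linked genes (18), beside a median gene at -1.23. Of the hosts 4 of 7 fell and 2 rose, and of the IGF2BP and LIN28 partners 17 of 18 fell. With libraries centred on their median, 54.5% of all tested genes were higher and 32.4% lower. On that scale the machinery list held 14 higher and 4 lower, the tailing list 6 and 3, the RNA-binding list 13 and 5, the HMGA-linked list 13 and 4, the hosts 3 and 2, and the partners 12 and 6. The let-7 targets had a median of -1.65, and 40 of 43 fell, whereas with libraries centred 19 were higher and 22 lower. Within that list the deepest falls were in GDF6 (4.72), E2F5 (4.36), NME6 (3.0), and ARID3A (2.93). The Argonaute partner TNRC6C fell by 3.11 and the helicase DDX17 by 2.87. The uridylyltransferase ZCCHC11 fell by 2.35, the RNA-binding protein PUM2 by 2.96, the mitotic kinase AURKA by 3.78, the mesenchymal factor TWIST1 by 3.36, and WDR82 by 3.15. Each of these also fell as deposited and with libraries centred. LINC-PINT rose by 1.58 ± 0.238 and MYC by 1.91 ± 0.112. The difference from SH-EP in response was positive for 4.17% and negative for 1.93% of all tested genes, and for 3 and 3 of the let-7 targets. It was 2.16 ± 0.369 for the RNA methyltransferase BCDIN3D, 1.5 for C22orf29, 1.36 for SNAI2, 1.35 for MYC, and 0.98 for IRS2, an insulin receptor substrate (adjusted p = 0.000305, 9.60e-05, 0.00023, 0.00083, and 0.0237). It was -1.36 for GDF6 and -1.08 for E2F5 (adjusted p = 0.0173 and 0.0266).

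Over the 30 libraries as deposited, the tested genes most like each member in log2 FPKM were named by Pearson's r. These values describe libraries that share line and treatment, and no test was made. LIN28B was most like USP54 (r = 0.967), TGIF2 (0.966), and UHRF1BP1 (0.962). HMGA1 was most like PEBP1 (0.981), COX5A (0.980), and SSRP1 (0.979), and HMGA2 most like APH1B (0.954), STAT2 (0.952), and UACA (0.941). IGF2BP1 was most like ARHGAP21 (0.979), ASPM (0.977), and FBXO28 (0.975). IGF2BP2 was most like CALM3 (0.960), PSME2 (0.958), and GNB1 (0.954), and IGF2BP3 most like ASAP2 (0.972), NOL4L (0.966), and FBXL18 (0.955). DICER1 had weaker likeness, with SOCS6 (0.892), ASCC3 (0.888), and C2CD3 (0.874).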

How the data were processed

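RNA-Seq was performed on 30 poly(A) libraries with strand-specific kits, 3 for each of 5 lines in DMSO or CYC065. The authors used HISAT2 for alignment to GRCh37 (hg19) and Cufflinks for FPKM, and the deposited values are FPKM of 26228 genes and 92 ERCC spike-ins, which were added by cell number. The gene annotation is not given in the sources used here. FPKM carry no counts, so no counting interval is given, and relative depth was read from values under 0.15 FPKM. Short features such as hairpins are poorly captured by this assay.

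From these values, log2(FPKM + 0.1) was computed for the 11575 genes averaging 1 FPKM or more, and fitted over all 10 groups with limma 3.58.1 in R 4.3.3 (lmFit, eBayes with trend, Benjamini-Hochberg over all tested genes, adjusted p under 0.05, two-sided). A fold change on this scale understates that of low genes. Comparisons of lines in DMSO used FPKM as deposited. CYC065 comparisons used FPKM scaled to the 55 ERCC RNAs averaging 1 FPKM or more. The exact permutation test treats the libraries of the 4 MYCN lines as exchangeable, and 3 libraries against 3 cannot go under p = 0.1. The fit was tested on simulated data. Python 3.11.15 was used for summaries and figures.

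The members and gene lists were chosen with earlier results of these data known. Of each list, up to 4 genes past the threshold with the largest mean change over the MYCN lines were eligible for naming in each kind of comparison, beside MYCN, MYC, the cell type markers, genes with at least as many let-7 seed matches as HMGA2, and, for likeness, the 3 genes with the highest Pearson r. MIRLET7BHG, ZCCHC11, and ZCCHC6 in DMSO were named outside that rule. Ratios within a library were added after the values had been seen. Promoters, hairpins, and mature miRNAs came from RefSeq, and 3′ UTRs from the coding transcripts tagged MANE Select in a GRCh37 annotation.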

Additional observations from a re-analysis of the deposited data

Results flagged for a closer look

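The response of IGF2BP3 to CYC065 differed between MYCN lines and SH-EP by the interaction term of the fit across all genes. On spike-in scaled values the difference was -0.89 in WT, -0.92 in S62A, and -0.79 over the 4 MYCN lines (limma, adjusted p = 0.0345, 0.0385, and 0.0192). As deposited, IGF2BP3 lay below all SH-EP libraries of the same treatment in 12 of 12 treated libraries of the MYCN lines and in 9 of 12 in DMSO. On spike-in scaled values it did so in 12 of 12 under both, so lower treated levels alone do not show a different response. Library pooling is not given, so a part of it cannot be told apart from line. Groups of 3 libraries are too small for a check of single outlying samples.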

How the results depend on the processing

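Of 1118 alternative values for 124 results on the members, 1002 kept their side of the threshold, 41 lost their call, and 19 gained one. The other 56 changed direction, all 56 with the scaling of libraries. A change of direction was counted only where the main or the alternative value passed the threshold. The 1002 can therefore hold changes of sign between values that did not pass. Scaled to spike-ins, DMSO differences from SH-EP turned to -1.59, -0.86, -0.67, and -1.16 for DICER1 (S62A, T58A, T58A S62A, and the mean), to -1.04, -0.26, -0.15, -0.50, and -0.49 for HMGA1 (the same, with WT before the mean), and to -0.37 for LIN28B in S62A. Between MYCN lines, S62A minus T58A turned to -0.73 (DICER1), -0.79 (HMGA1), and -0.69 (HMGA2), S62A minus WT to -0.057, -0.27, and -0.51 (DICER1, HMGA2, and IGF2BP1), and T58A S62A minus S62A to 0.90, 0.81, and 0.93 (HMGA1, HMGA2, and IGF2BP1). As deposited, CYC065 changes in S62A, SH-EP, T58A, T58A S62A, WT, and the mean turned to 0.21, 0.093, 0.43, 0.73, 0.81, and 0.55 (DICER1), 0.88, 0.98, 0.86, 0.79, 0.72, and 0.81 (HMGA1), and 0.39, 0.35, 0.46, 0.39, 0.36, and 0.40 (IGF2BP2). With libraries centred on their median they turned to 0.37, 0.24, 0.62, 0.89, 0.99, and 0.72 (DICER1), 1.01, 1.12, 1.04, 0.94, 0.87, and 0.96 (HMGA1), and 0.53, 0.49, 0.64, 0.54, 0.52, and 0.56 (IGF2BP2), and to 0.033 for HMGA2 in WT.

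Genes called over the mean of the MYCN lines against SH-EP numbered 7047 (4008 higher and 3039 lower), 10688 when scaled to spike-ins (127 higher and 10561 lower), and 2749 with a change of at least 1.5-fold required. Genes whose CYC065 response differed numbered 706, and 1139 with a pseudocount of 1, 400 with a filter at 5 FPKM, 3854 as deposited, 3706 centred, and 250 with spike-ins of at least 50 FPKM. With MYCN lines against each other, DMSO, calls over the 6 pairs numbered 17557, and 33524 when scaled to spike-ins and 10223 with only the groups compared. Leaving out each library in turn gave 6240 to 7101, 11047 to 11113, and 429 to 1350 calls for lines, CYC065, and difference of responses, the last outside 1.5 times without T58A DMSO library 1 or any SH-EP DMSO library. Of 1269 such fits of members, 0 changed direction where the main or the alternative value passed the threshold. LIN28B was under the filter at 5 FPKM. The cause of these changes was not tested beyond the scaling itself. No paired analysis was possible because the columns of the table carry no replicate number that matches the labels. Depth limits LIN28A, LIN28B after CYC065, and the 11 let-7 hairpins listed at 0 FPKM.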
